A study of Mus musculus with 14 samples.

Results

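Mouse cells that resisted neural differentiation, called DR-ESC, were compared gene by gene with Oct4-GFP-H-ESC, embryonic stem cells that had been sorted for a strong reporter signal. Both populations come from a line in which green fluorescent protein reports on Oct4 (Pou5f1), and both were sorted on that reporter. A gene was compared when it had at least 1 FPKM, a level per unit of transcript length and sequencing depth, in either library, and 12128 of the 13180 genes in the table met this rule. The highest value among the genes just left out was 0.99995 FPKM (D630037F22Rik), and the lowest just inside was 1.0009 FPKM (5430405H02Rik). A gene that reached 1 FPKM in only 1 library could only be higher in that library. The measure was log2 of the ratio of FPKM + 1, DR-ESC over Oct4-GFP-H-ESC, and a gene is called higher or lower here at a size of 2-fold or more. Each population was 1 library of poly(A) RNA, so the differences rest on size alone, without a replicate check, an error or a p-value.

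Oct4-GFP-H-ESC were Oct4-GFP cells grown in serum with LIF (10 ng/ml) and fibroblast feeders stopped with mitomycin C, and enriched for high GFP. DR-ESC were the cells still GFP positive on day 8 of neural differentiation in N2B27 medium, which were sorted and then grown further in embryonic stem cell medium. The labels give a growth protocol for the whole series and do not say whether DR-ESC had feeders, nor how long they were cultured after the sort. Levels are also given for Oct4-GFP-ESC, the line before any sort, and for NPC(GFP-), the GFP negative cells of day 8, with 1 library each. Unless stated otherwise, 4 levels in a row stand in the order Oct4-GFP-H-ESC, DR-ESC, Oct4-GFP-ESC and NPC(GFP-).

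Mouse embryonic stem cells grown with LIF hold a naive state, in which STAT3 and factors such as Klf4, Tbx3 and Esrrb act beside the core trio Pou5f1, Sox2 and Nanog. On leaving it they pass through a formative state, marked by genes such as Fgf5, Otx2 and Zic2, before they commit to a lineage. N2B27 medium without LIF lets many of them become neural progenitors that express Sox1 and Pax6, and a remainder keeps Oct4.

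The stem cell label held for both libraries by its markers. Pou5f1 (chromosome 17, 35506032 to 35510777 in GRCm38.p6) had 1037, 609, 1881 and 0.276 FPKM. Nanog had 148, 145, 129 and 0.0918 FPKM, and Sox2, which neural progenitors also express, had 147, 155, 232 and 103 FPKM. All 3 factors were thus abundant in DR-ESC, and Pou5f1 and Nanog were near 0 in NPC(GFP-) alone. Across 13180 genes the 2 sorted libraries had a Pearson correlation of 0.953 in log2(FPKM + 1), a description across genes that share both libraries and are not independent replicates. The depth of the libraries is unknown, since FPKM carries no read count.

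Of the genes compared, 443 (3.65%) were higher in DR-ESC and 474 (3.91%) lower, with a median log2 ratio of -0.0044, and 72.2% of genes lay within 0.5 of 0 on the log2 scale. Past 4-fold, 54 genes (0.445%) were higher and 91 (0.75%) lower. The nearest genes on either side of the 2-fold size were Klhl24 (1.0009) and Sms (0.99946) above, and Pgs1 (-1.00003) and Fgf4 (-0.99977) below. With both libraries scaled to equal sums of FPKM, the split became 590 higher and 399 lower, since this scaling moved the median of all genes to 0.11. The ratio also ran with abundance. In 10 equal bins of mean level, the median log2 ratio was highest in the third bin, at 0.13, and lowest in the most abundant bin, at -0.19. The 443 higher genes had median levels of 2.80, 9.34, 4.17 and 13.3 FPKM in the order given. The 474 lower genes had medians of 8.98, 2.02, 10.2 and 1.25 FPKM. Oct4-GFP-ESC thus stood nearer to Oct4-GFP-H-ESC in both medians, and NPC(GFP-) lay beyond DR-ESC in both.

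**Figure D1:**
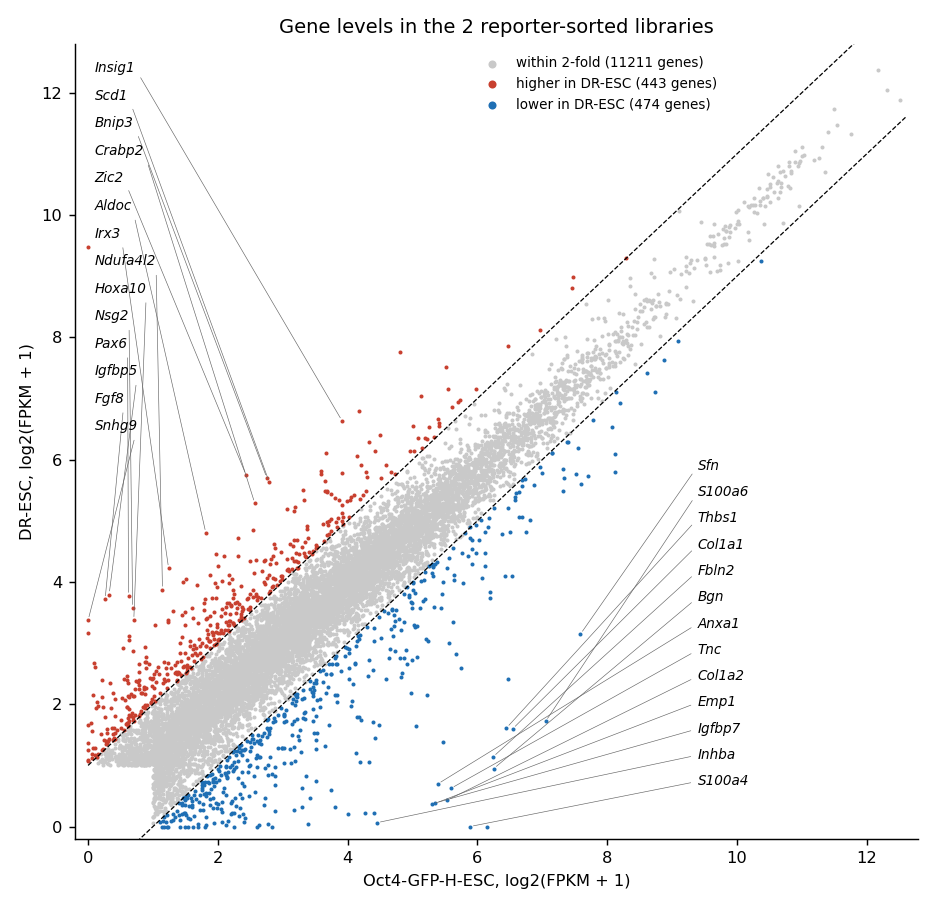
Level of each of the 12128 genes in Oct4-GFP-H-ESC (horizontal) and DR-ESC (vertical), both as log2(FPKM + 1), with 1 library each. Dashed lines mark the 2-fold size; 443 genes lie above (red) and 474 below (blue), and the named genes are the 14 highest and 13 of the 14 lowest that reach 5 FPKM in either library.

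The 14 genes highest in DR-ESC included patterning and signalling genes, lipid genes and genes of the response to low oxygen. Igfbp5 (chromosome 1, 72858065 to 72874865), a secreted protein that binds insulin-like growth factors, had 0.252, 12.9, 0.336 and 37.9 FPKM, a log2 ratio of 3.47. Fgf8, a growth factor of the gastrulating embryo, had 0.199, 12.1, 8.704 and 0.132 FPKM and a log2 ratio of 3.45, so that only Oct4-GFP-H-ESC among the 3 stem cell libraries was low. Nsg2, a protein of neuronal vesicles, had 0.6101, 10.9, 1.14 and 65.4 FPKM, and Crabp2, which carries retinoic acid in the cytoplasm, had 4.94, 38.005, 7.84 and 475 FPKM. For both genes NPC(GFP-) was the highest library. Ndufa4l2, a mitochondrial protein induced at low oxygen, had 1.21, 13.6, 2.11 and 0.884 FPKM, and here DR-ESC was the highest. Snhg9, a short gene that hosts a small nucleolar RNA, reached 9.37 FPKM in DR-ESC and 0 in each of the others, so no fold is given. The rest of the 14 highest were Zic2, Pax6, Aldoc, Irx3, Bnip3, Scd1, Insig1 and Hoxa10, which are described with their groups.

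The genes lowest in DR-ESC coded mainly for extracellular matrix and for calcium- and membrane-binding proteins. S100a6 (chromosome 3, 90612894 to 90614414), a calcium-binding protein, had 132, 2.29, 260.4 and 0.345 FPKM and a log2 ratio of -5.33. Thbs1, a matrix glycoprotein that activates latent TGF-beta, had 86.4, 2.06, 46.4 and 10.3 FPKM. For both genes the sorted and the unsorted stem cell libraries were high. Sfn, an epithelial 14-3-3 protein that p53 induces, had 192, 7.85, 183 and 0.5495 FPKM and a log2 ratio of -4.44. Inhba, which codes for the subunit of activin A, had 20.9, 0.0445, 30.05 and 0 FPKM and a log2 ratio of -4.39. Others of the 14 were S100a4, Bgn, Col1a2, Fbln2, Emp1, Tnc, Col1a1, Igfbp7 and Anxa1. Of the 14, 7 are in the list of fibroblast and feeder markers, and in bulk RNA fewer cells of a type and less RNA per cell cannot be told apart.

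**Figure D2:**
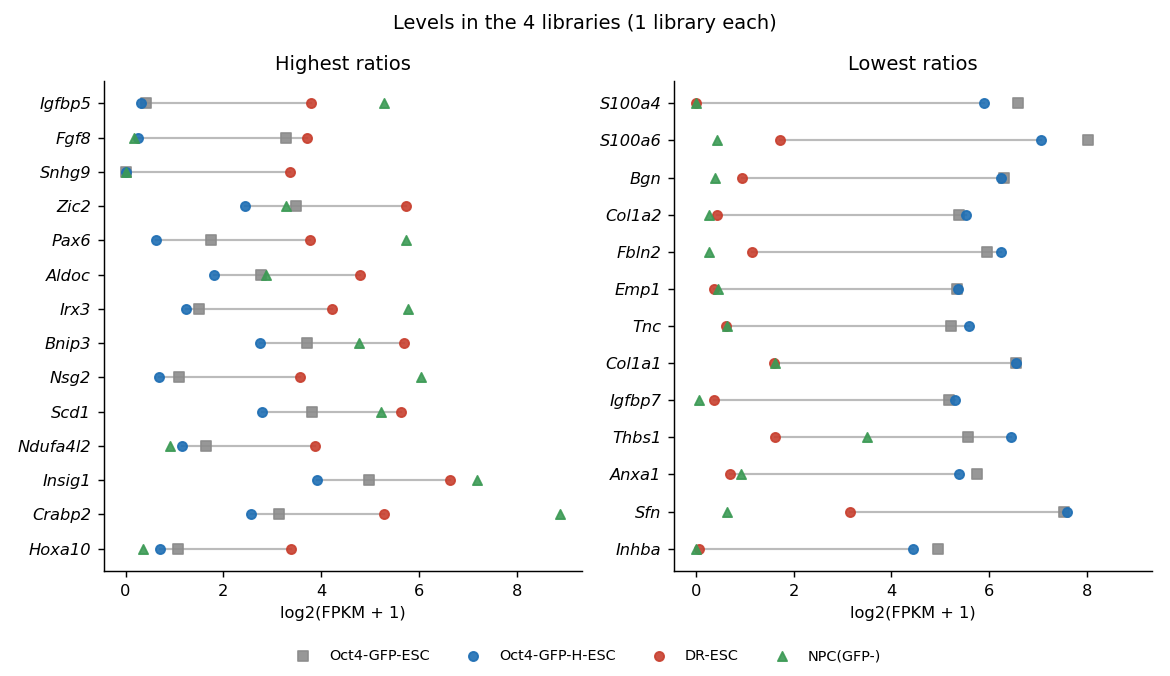
Level of the 14 highest (left) and of 13 of the 14 lowest (right) genes in each of the 4 libraries, as log2(FPKM + 1), 1 point a library. In the right panel Oct4-GFP-H-ESC and Oct4-GFP-ESC lie together at high levels for most genes, while DR-ESC lies near 0 for S100a4 and Inhba.

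The core of the pluripotency network stayed within 2-fold between the sorted populations, and part of the naive layer was lower. None of 6 core factors passed the 2-fold size in either direction (median log2 ratio -0.096), a median that turned positive with equal sums or with the abundance trend removed. Pou5f1 had a log2 ratio of -0.77, Nanog one of -0.021 and Sox2 one of 0.074. Of 29 naive and general pluripotency genes, 5 were lower and 1 higher, with a median of -0.65. Klf4 (chromosome 4, 55527137 to 55532475), a Krüppel-like factor downstream of STAT3, had 72.6, 12.3, 109 and 7.35 FPKM and a log2 ratio of -2.46. Tbx3, a T-box factor of the same network, had 49.1, 15.4, 43.2 and 2.01 FPKM. In DR-ESC both were well below the other stem cell libraries. Zfp57, which guards methylation at imprinted loci, had 186, 71.9, 169 and 34.3 FPKM, and Tdgf1, the Nodal co-receptor Cripto, had 546, 245, 539 and 0.0612 FPKM. Esrrb had 96.98, 62.8, 149 and 0.7704 FPKM and Zfp42 had 37.2, 27.4, 48.1 and 0.771 FPKM, log2 ratios of -0.62 and -0.43 that stayed under the size. Dppa3, a gene of naive cells and germ cells, was the one member called higher, with 10.4, 23.2, 27.4 and 0.0577 FPKM.

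Genes of the LIF response were lower without any member being higher. Of 23 genes, 9 were lower and 0 higher, with a median of -0.82. The receptor chains were not among the genes called, with log2 ratios of 0.080 for Lifr and 0.59 for Il6st, which were singled out after their values were seen. Socs3, the feedback inhibitor of the pathway, had 33.8, 10.9, 30.1 and 35.7 FPKM. Sgk1, a kinase gene, had 68.8, 21.3, 125 and 3.51 FPKM, and Bcl3, a nuclear factor related to I-kappa-B, had 17.5, 2.36, 26.5 and 0.151 FPKM. Bcl3 was thus highest in the unsorted line and lowest in NPC(GFP-). The labels give 10 ng/ml LIF for the line, and the dose in the later culture of DR-ESC is not given in the sources used here.

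The formative and primed genes were split, with more members higher than lower. Of 27 genes, 12 were higher and 5 lower, with a median of 0.55. Zic2 (chromosome 14, 122475384 to 122480328), a zinc finger factor of the epiblast, had the largest difference of the list at 3.31, with 4.42, 52.7, 10.3 and 8.66 FPKM, so that DR-ESC was the highest of the 4 libraries. Otx2, a homeobox factor of the formative epiblast, had 6.34, 22.5, 14.7 and 0.0231 FPKM, and Fgf5 had 0.716, 5.31, 1.86 and 0.0764 FPKM. Both were again highest in DR-ESC and low in NPC(GFP-), and Fgf5 passed the minimum only through DR-ESC. Sfrp2 (3.26, 20.4, 6.62 and 96.3 FPKM), a secreted Wnt antagonist, and Sall2 (3.95, 20.4, 5.18 and 46.3 FPKM), a zinc finger factor, had the opposite order at the top, with NPC(GFP-) above DR-ESC. Etv4, an ETS factor that FGF signalling induces, went the other way from most of the list, with 92.01, 16.2, 101 and 1.996 FPKM and a log2 ratio of -2.44. Grhl2, an epithelial factor of the formative state, was also lower (4.54, 0.855, 4.19 and 0.0517 FPKM), as was Tcf15 (54.2, 14.8, 67.9 and 2.63 FPKM). Foxd3, Pou3f1 and Dnmt3b stayed within the size, with log2 ratios of -0.98, 0.55 and 0.23.

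In the Nodal and activin pathway the inhibitor Lefty1 was higher and the activin subunits were lower. Of 20 genes, 4 were higher and 3 lower (median 0.32). Among ligands, Nodal had 53.3, 43.1, 39.2 and 0.1302 FPKM, under the size, while Inhbb, the beta B subunit of activin, had 10.4, 0.678, 17.1 and 0.3895 FPKM and a log2 ratio of -2.77. Of the feedback inhibitors, Lefty1 (chromosome 1, 180935022 to 180938401) had 87.7, 232, 137 and 0.251 FPKM and a log2 ratio of 1.395, whereas its neighbour Lefty2 had 92.4, 107, 173 and 0.0311 FPKM and 0.204. The 2 Lefty genes are close paralogues, and reads may be split between them. Smad3, which carries the signal to the nucleus, had 3.14, 8.31, 3.904 and 16.2 FPKM. Among 17 TGF-beta ligands, receptors and latency proteins, 5 were lower and 0 higher (median -0.39). Tgfb1 had 4.28, 0.575, 8.67 and 0.3905 FPKM, and Ltbp2, a matrix protein, had 4.005, 0.128, 3.103 and 0.0274 FPKM.

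BMP genes went in both directions, the ligands among them. Of 17 genes, 1 was higher and 6 were lower, although the median was positive at 0.29. The ligand Bmp4 had 10.4, 1.41, 9.97 and 0.589 FPKM and a log2 ratio of -2.24, and the ligand Bmp7 had 1.85, 15.6, 2.55 and 7.76 FPKM and 2.55. The Id genes are direct BMP targets that block differentiation factors. Id1 had 36.5, 3.43, 31.04 and 16.2 FPKM, a log2 ratio of -3.08, and Id3 had 42.6, 10.9, 52.99 and 49.8 FPKM, a log2 ratio of -1.87. Id1 and Id3 were therefore lower in DR-ESC than in any other library.

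FGF genes differed in both directions, 7 higher and 5 lower of 24 (median 0.077). Beside Fgf8 and Etv4, the ERK feedback gene Spry4 had 23.1, 4.31, 20.1 and 1.52 FPKM and Phlda1 had 27.7, 4.71, 18.9 and 40.9 FPKM, log2 ratios of -2.18 and -2.33. The immediate early factors Egr1 (11.1, 55.5, 20.4 and 44.1 FPKM) and Fos (12.95, 40.3, 19.3 and 41.7 FPKM), which ERK induces within minutes, were in contrast higher in DR-ESC. Fosl1, a late partner of the same family, had 2.98, 0.236, 2.82 and 0 FPKM. Over 25 immediate early genes, 2 were higher and 5 lower.

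Wnt, Notch and Hedgehog components included more higher than lower genes. Of 29 Wnt ligands, receptors and targets, 5 were higher and 3 lower (median 0.31). The ligand Wnt8a had 1.81, 8.79, 3.17 and 0 FPKM, the receptor Fzd2 had 4.86, 16.8, 7.61 and 30.9 FPKM, and the nuclear effector Lef1 had 7.38, 19.7, 9.66 and 0.1402 FPKM. The ligands Wnt6 (3.95, 1.10, 4.99 and 0.170 FPKM) and Wnt5a (2.38, 0.545, 2.62 and 13.2 FPKM) were lower. Cdx1, a caudal homeobox target, had 17.3, 1.09, 23.2 and 0 FPKM and a log2 ratio of -3.13, and was low in DR-ESC and NPC(GFP-) alike. Of 11 antagonists, Sfrp2, Sfrp1 (15.3, 39.4, 24.9 and 51.2 FPKM) and Shisa2 (2.04, 10.96, 2.603 and 3.34 FPKM) were higher, and Dkk2 (3.35, 0.0167, 5.12 and 0.0501 FPKM) and Dkk1 (2.03, 0.275, 4.18 and 0.4495 FPKM) lower. Of 20 Notch genes, 4 were higher and 0 lower (median 0.56). Among the 4, Dtx4 (0.618, 3.40, 0.998 and 62.4 FPKM) and Hes5 could only be higher, since each was under the minimum in Oct4-GFP-H-ESC. The target Hes5 had 0.0344, 2.22, 0.256 and 67.7 FPKM, and passed the minimum only through DR-ESC. Hes6, a member of the same gene family, had 11.3, 29.9, 20.5 and 105 FPKM, and the receptor Notch2 had 5.97, 13.4, 5.24 and 13.2 FPKM. Hes1, Hey1 and Nrarp, also in the list, stayed within the size, with log2 ratios of 0.46, 0.66 and 0.97. Of 11 Hedgehog genes, 4 were higher and 0 lower (median 0.704). Among the 4, Gas1 and Boc passed the minimum only through DR-ESC, which fixed their direction. Ptch1 (chromosome 13, 63508328 to 63573460), at once the receptor and a target, had 7.38, 35.4, 11.2 and 43.03 FPKM and a log2 ratio of 2.12. Smo, the transducer that Ptch1 restrains, had 6.21, 20.5, 10.2 and 37.3 FPKM, and the co-receptors Gas1 and Boc had 0.724, 3.75, 0.914 and 19.05 FPKM and 0.548, 2.55, 0.516 and 26.3 FPKM. For all 4 of these genes DR-ESC stood between Oct4-GFP-H-ESC and NPC(GFP-).

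Neural progenitor genes were the lineage list with the largest share of higher members. Of 17 genes, 11 were higher and 1 lower (median 1.25). Of the higher genes, Pax6, Irx5, Hes5, Dbx1, Fabp7 and Nkx6-1 passed the minimum only through DR-ESC. The minimum fixed their direction, so the share of higher members rests in part on it. Pax6 (chromosome 2, 105668896 to 105698410), a factor of neural progenitors, had 0.5404, 12.7, 2.34 and 52.1 FPKM and a log2 ratio of 3.15. Irx3 had 1.36, 17.7, 1.82 and 53.9 FPKM, Sox1 had 4.11, 14.4, 3.73 and 26.6 FPKM, and Sox21, a repressor of the same family, had 1.34, 9.39, 1.84 and 55.1 FPKM. For each, DR-ESC stood between Oct4-GFP-H-ESC and NPC(GFP-). Fabp7, the fatty acid carrier of radial glia, reached 5.41 FPKM in DR-ESC against 168 in NPC(GFP-) and 0.0665 in Oct4-GFP-H-ESC. Vim, an intermediate filament gene that fibroblasts also express, was the lower member, with 207, 52.04, 328 and 643 FPKM. Of the defining markers Nes had 6.87, 7.92, 11.7 and 96.9 FPKM, within the size, and Olig2 was under 1 FPKM in both sorted libraries. Summed over the list, the level was 248, 196, 387 and 1718 FPKM, of which Vim alone gave 207, 52.04, 328 and 643. The part of any GFP negative cells in these values was not tested.

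Neuron genes did not share this direction, with 2 higher and 2 lower of 16 and a median of -0.41 that turned positive when no FPKM minimum was set. Crmp1, a protein of growing axons, had 4.21, 10.8, 8.83 and 151 FPKM, and Nefl, the light neurofilament chain, had 35.8, 12.1, 38.6 and 205 FPKM. Of the defining markers, Tubb3 had 19.04, 18.6, 47.3 and 342 FPKM. It was level between the sorted libraries and higher in the unsorted line. Of 8 primitive streak and mesoderm genes, 2 were lower and 0 higher (median -0.44), with Eomes at 6.404, 2.298, 6.89 and 0.03996 FPKM. T (Brachyury) was low in both sorted libraries, at 0.914 and 1.01 FPKM, beside 16.1 in Oct4-GFP-ESC. Endoderm genes had 3 higher and 1 lower of 20, a median of -0.061 that changed sign with equal sums or no minimum. The higher ones were the basement membrane collagens Col4a1 (47.7, 115, 59.2 and 857 FPKM) and Col4a2 (30.3, 69.9, 40.3 and 543 FPKM) and the parathyroid hormone receptor Pth1r (2.55, 8.32, 5.72 and 44.4 FPKM), while the defining factors Gata4, Gata6 and Sox17 stayed within the size. Of 15 trophoblast genes, 6 were lower and 1 higher (median -0.87), and the lower ones included the keratins, Peg10 (68.3, 18.2, 49.4 and 76.4 FPKM) and Hand1 (4.09, 0.452, 1.904 and 0 FPKM). These keratins, Krt7, Krt8, Krt18 and Krt19, are counted again among the lower epithelial genes.

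**Figure D3:**
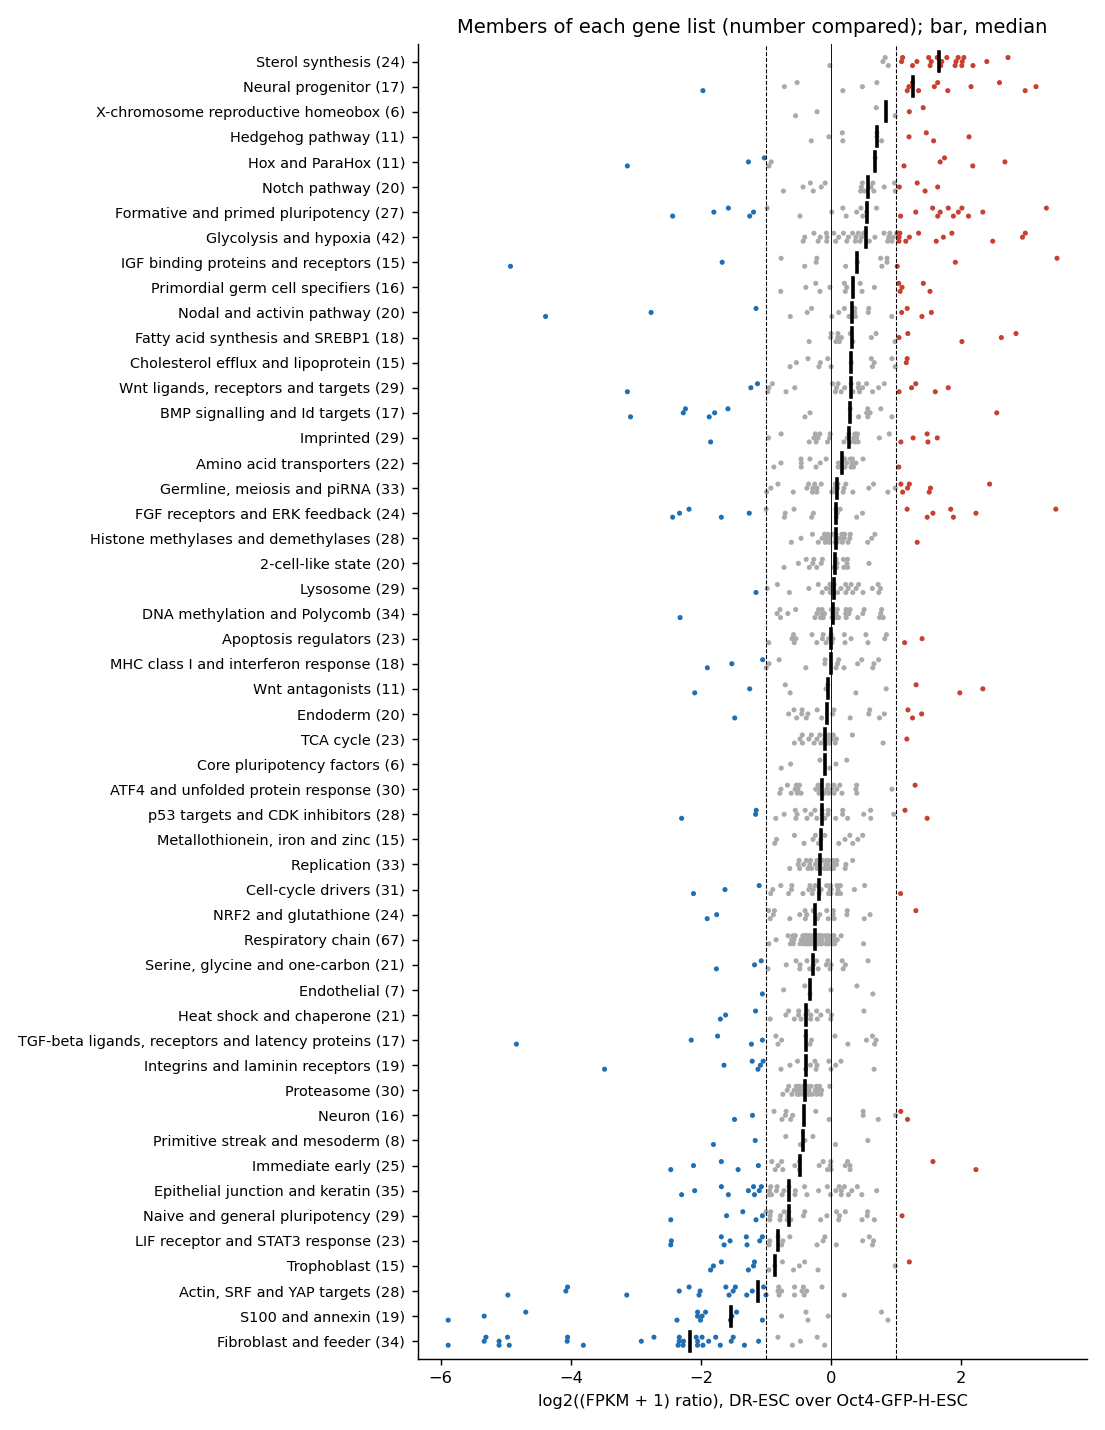
The gene lists with at least 5 members compared, by the log2 ratio of DR-ESC over Oct4-GFP-H-ESC of their members, 1 point a gene and 1 median a list, with dashed lines at the 2-fold size. Sterol synthesis (median 1.66) and neural progenitor genes (median 1.25) lie farthest to the right, and fibroblast genes (median -2.17) farthest to the left.

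Genes of the Hoxa cluster, which pattern the trunk along the body axis, were higher in the rows compared. All 6 rows of the cluster reported here, from Hoxa4 to Hoxa11, were higher. This grouping by position was made after the values were seen. Each of the 6 rows was under 1 FPKM in Oct4-GFP-H-ESC and was compared only because it reached 1 FPKM in DR-ESC. The minimum thus fixed their shared direction in advance, and only the sizes are informative. Hoxa10 (chromosome 6, 52231197 to 52240854) had 0.629, 9.38, 1.11 and 0.277 FPKM and a log2 ratio of 2.67, Hoxa9 had 0.159, 4.24, 0.175 and 0.06797 FPKM, and Hoxa4 had 0.333, 3.26, 0.584 and 8.297 FPKM. At the end with Hoxa9 and Hoxa10 the gene was low in NPC(GFP-), and at the end with Hoxa4 it was higher there than in DR-ESC. Hoxb1, which also entered only through DR-ESC, was higher too (0.528, 4.11, 0.752 and 0.751 FPKM). The Hoxc genes Hoxc6 (1.82, 0.1701, 2.75 and 0.507 FPKM) and Hoxc8 (1.15, 0.0542, 2.31 and 0.0162 FPKM) were lower. Hoxc6 and Hoxc8 in turn entered only through Oct4-GFP-H-ESC. The wider list of 11 Hox and ParaHox genes, which leaves out merged rows, had 5 higher and 3 lower. Its median of 0.68 was negative over genes with at least 5 FPKM.

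Some genes of the germ line were higher, and the 2-cell-like genes were level. Of 16 primordial germ cell specifiers, 5 were higher and 0 lower (median 0.34). Prdm1 (Blimp1), the repressor that opens germ cell fate, had 1.24, 5.43, 2.68 and 0.0965 FPKM, Tfap2c had 13.3, 28.8, 31.9 and 0.228 FPKM, and the receptor Kit had 7.98, 22.97, 7.39 and 22.5 FPKM. For Tfap2c the unsorted line was as high as DR-ESC, whereas Prdm1 was highest in DR-ESC. Of 33 genes of the germ line, of meiosis and of piRNAs, 7 were higher and 0 lower (median 0.098). Stra8 (chromosome 6, 34920163 to 34939344), which retinoic acid induces before meiosis, had 11.7, 67.9, 23.3 and 0.0282 FPKM and a log2 ratio of 2.44. Rec8, the meiotic cohesin, had 6.82, 21.5, 10.9 and 5.56 FPKM, and Sohlh2, a germ cell factor, had 5.39, 17.2, 3.41 and 0.836 FPKM. Of 20 genes of the 2-cell-like state none passed the size, and Zscan4c, whose family members are nearly identical so that its own value is uncertain, had 34.6, 36.4, 2.59 and 0.01695 FPKM. Of 6 reproductive homeobox genes of the X chromosome, Rhox1 (0.818, 3.85, 1.08 and 0 FPKM) and Rhox9 (3.49, 9.33, 6.56 and 0.209 FPKM) were higher.

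Fibroblast and matrix genes formed the list with the most lower members. Of 34 fibroblast and feeder markers, 29 were lower in DR-ESC and 0 higher, with a median of -2.17. Their summed level was 1772, 527, 2314 and 1806 FPKM, the last mostly Sparc and Vim. Col1a1 and Col1a2, the chains of type I collagen, had 92.4, 2.03, 92.4 and 2.06 FPKM and 45.3, 0.349, 41.02 and 0.206 FPKM. Bgn, a proteoglycan that binds collagen, had 75.2, 0.927, 78.1 and 0.321 FPKM, and Fbln2, a protein of elastic fibres, had 74.7, 1.202, 61.1 and 0.204 FPKM. In the library sorted for high GFP these 4 genes were thus at about the level of the unsorted line. Of the defining markers S100a4 was listed at 0 in DR-ESC (58.1 FPKM in Oct4-GFP-H-ESC), and Postn, Prrx1 and Twist2, singled out after their values were seen, had 0.03002, 0.0699 and 0.214 FPKM there. The members within the size were Fn1, Fbln5, Mmp2, Pdgfra and Sparc, the last with 214, 185, 280.5 and 1034 FPKM. The feeder markers' part in the lower genes was not tested. With the fibroblast, S100 and annexin, and actin lists left out, 421 genes were lower and 443 higher.

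The cytoskeletal, adhesion and annexin genes went with the fibroblast markers in direction. Part of this is shared membership, since S100a4, S100a6, Lgals1, Acta2 and Tagln are also in the fibroblast list. Of 19 S100 and annexin genes, 13 were lower and 0 higher (median -1.55), and Anxa1, a membrane-binding protein, had 40.9, 0.621, 53.05 and 0.887 FPKM. Of 28 actin, SRF and YAP target genes, 16 were lower and 0 higher (median -1.12), with smooth muscle actin, Acta2, at 87.7, 4.35, 99.2 and 9.13 FPKM. Axl, a receptor kinase gene of that list, had 12.38, 0.518, 11.9 and 1.72 FPKM. Of 19 integrins and matrix receptors, 6 were lower and 0 higher (median -0.39), with Cd44, a receptor for hyaluronan, at 12.9, 0.248, 12.2 and 0.927 FPKM. Of 35 epithelial genes, 9 were lower and 0 higher (median -0.65). Krt8, a keratin of simple epithelia, had 89.5, 27.1, 214 and 57.2 FPKM, Perp, a desmosome protein, had 32.7, 5.85, 23.1 and 2.45 FPKM, and the adhesion molecule Cdh1 had 86.8, 48.03, 83.7 and 1.12 FPKM, within the size. Cdh2, its neural counterpart, had 4.08, 5.98, 4.58 and 76.7 FPKM. Of the 4 blood markers, Lyz2 (5.06, 0, 5.84 and 0 FPKM) and Laptm5 (46.4, 6.996, 22.7 and 0.144 FPKM) were lower, and of 7 endothelial markers Tek (3.43, 1.13, 1.67 and 2.33 FPKM) was. Among 18 genes of antigen presentation and the interferon response, 3 were lower, among them B2m and Isg15, and the median of -0.0081 turned positive with a pseudocount of 0.1 and under the 3 scalings of the libraries.

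The promoter of Emp1, a membrane protein gene among the 14 lowest (39.9, 0.303, 39.7 and 0.363 FPKM), is shown because it holds 2 copies of TGANTCA, the letters AP-1 factors are known to bind. AP-1 is the family of Fos, Fosl1 and Junb. The window runs from 250 bases before to 50 after a transcript start of the gene in RefSeq (GRCm38.p6), which for Emp1 is not its outermost start, 5′ to 3′ on the strand of the gene, with the motif in capitals. The motif was chosen after the differences were seen, and both strands were searched.
Emp1 (chr6:135362681-135362980, plus strand): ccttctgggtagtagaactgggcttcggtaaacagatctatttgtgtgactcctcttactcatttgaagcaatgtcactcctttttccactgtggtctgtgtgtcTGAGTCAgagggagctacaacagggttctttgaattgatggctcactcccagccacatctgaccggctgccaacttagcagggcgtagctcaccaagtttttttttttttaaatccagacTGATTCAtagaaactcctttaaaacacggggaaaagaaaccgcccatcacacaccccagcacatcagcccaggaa
TGANTCA was found in 10.6% of the windows of lower genes, 2.83% of those of higher genes and 4.705% of those of all genes compared. In the fibroblast list it was in 7.69% of windows. A match describes these letters in these windows only, and the other window of Emp1 in RefSeq had none.

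Sterol synthesis had the largest share of higher genes of the 53 lists, 20 of 24, with 0 lower and a median of 1.66. Summed over the list, the level was 430.1, 1373, 814 and 1541 FPKM. Oct4-GFP-H-ESC was therefore the low library of the 4. Among late enzymes of the pathway, Sc4mol, a sterol methyl oxidase, had 11.04, 53.5, 24.7 and 60.5 FPKM, Cyp51, the lanosterol demethylase, had 8.08, 36.3, 15.5 and 53.1 FPKM, and Dhcr7, which makes cholesterol, had 9.01, 39.5, 18.7 and 34.7 FPKM. Of the genes that control the pathway, Insig1 (chromosome 5, 28071412 to 28078662), which holds SREBP in the endoplasmic reticulum, had 14.1, 98.3, 30.5 and 145 FPKM and a log2 ratio of 2.72. Pmvk, Hsd17b7 and Ebp were among the members within the size. The promoter of Hmgcs1, an early enzyme of the pathway (34.1, 131, 57.2 and 245 FPKM), is shown because it is the 1 of 19 windows of the list that holds TCACNCCAC, the sterol response element to which SREBP is known to bind.
Hmgcs1 (chr13:119690101-119690400, plus strand): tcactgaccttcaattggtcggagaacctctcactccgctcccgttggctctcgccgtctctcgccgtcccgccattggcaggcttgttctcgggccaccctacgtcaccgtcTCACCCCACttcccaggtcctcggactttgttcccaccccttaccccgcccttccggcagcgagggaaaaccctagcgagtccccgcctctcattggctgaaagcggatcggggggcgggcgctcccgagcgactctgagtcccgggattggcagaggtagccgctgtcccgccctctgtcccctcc
The same letters, searched on both strands, stood in 1.19% of windows of all genes compared, and the strict spelling leaves out variants of the element.

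**Figure D4:**
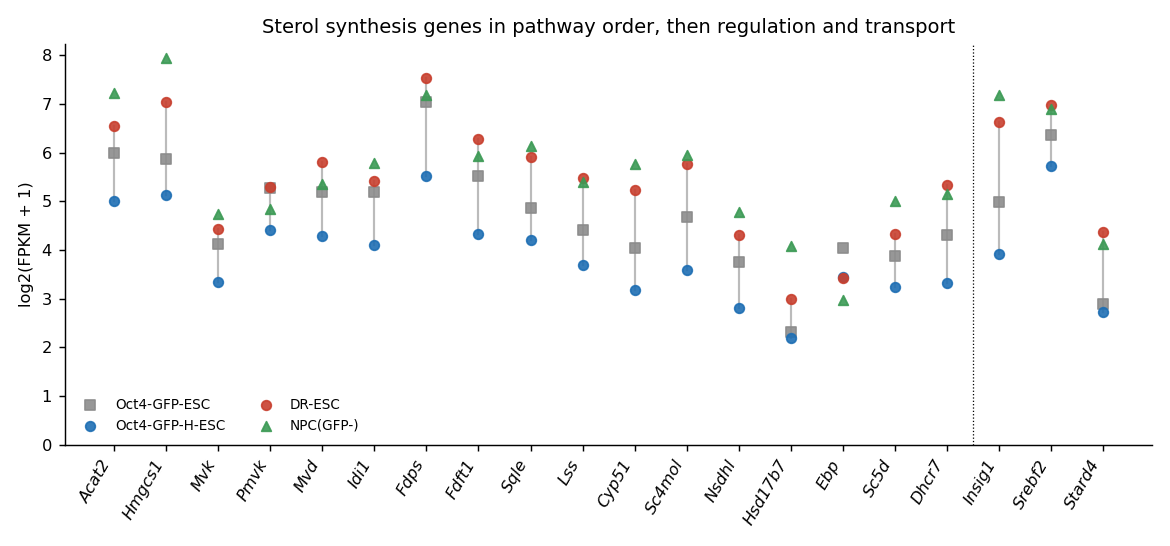
Level of 20 of the 24 sterol synthesis genes in the 4 libraries, as log2(FPKM + 1), 1 point a library. DR-ESC lies above Oct4-GFP-H-ESC for every gene drawn except Ebp (9.85, 9.701, 15.4 and 6.87 FPKM), and 17 of those drawn pass the 2-fold size.

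Fatty acid genes followed in part. Of 18 genes, 5 were higher and 0 lower (median 0.31). The desaturase Scd1 (chromosome 19, 44394450 to 44407709) had 5.93, 48.7, 13.1 and 36.4 FPKM and a log2 ratio of 2.84. Fads2 and Fads1, which desaturate longer chains, had 17.1, 110.0, 28.004 and 97.3 FPKM and 11.5, 49.4, 22.4 and 74.6 FPKM. Acly, which makes cytosolic acetyl-CoA, had 62.1, 142, 92.9 and 173 FPKM, and Srebf1, the gene of SREBP1, had 11.4, 24.5, 17.3 and 18.3 FPKM. Desaturases thus led the list, and Fasn, the synthase itself, stayed just under the size at 0.98. Of 15 cholesterol efflux and lipoprotein genes, the lipoprotein receptors Lrp8 (1.56, 4.76, 2.89 and 16.2 FPKM) and Scarb1 (13.2, 30.6, 17.8 and 14.4 FPKM) were higher.

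The glycolysis and hypoxia list had 13 higher genes and 0 lower of 42, with a median of 0.54. Bnip3 (chromosome 7, 138890836 to 138909506), which marks mitochondria for removal, had 5.76, 50.9, 12.2 and 26.2 FPKM and a log2 ratio of 2.94. Aldoc, an aldolase, had 2.52, 26.9, 5.83 and 6.34 FPKM, a log2 ratio of 2.98, and Ndrg1 had 2.92, 20.95, 4.96 and 13.1 FPKM. Egln3, an oxygen-sensing prolyl hydroxylase that hypoxia-inducible factor (HIF) itself induces, had 4.63, 19.4, 7.93 and 13.7 FPKM, and Slc16a3, which exports lactate, had 20.4, 69.8, 40.9 and 18.9 FPKM. DR-ESC was the highest of the 4 libraries for all 5 genes. The most abundant member, Gapdh (2896, 3424, 5379 and 1769 FPKM), and the lactate dehydrogenase gene Ldha (494, 430.3, 979 and 249 FPKM) were within the size, and Hif1a had 16.9, 18.4, 18.6 and 21.8 FPKM. These 3 were chosen after their values were seen. Promoters of Bnip3, Aldoc and Egln3 are shown because they hold ACGTG, the core to which HIF is known to bind, in capitals and read on either strand. The 2 matches of Bnip3 overlap, on opposite strands.
Bnip3 (chr7:138909457-138909756, minus strand): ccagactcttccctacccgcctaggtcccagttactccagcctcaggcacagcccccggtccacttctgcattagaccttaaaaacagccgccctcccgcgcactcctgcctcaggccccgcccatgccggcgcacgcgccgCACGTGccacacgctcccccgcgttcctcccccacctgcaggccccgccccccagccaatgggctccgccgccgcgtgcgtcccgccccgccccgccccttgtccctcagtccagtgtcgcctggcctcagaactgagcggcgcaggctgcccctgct
Aldoc (chr11:78322823-78323122, plus strand): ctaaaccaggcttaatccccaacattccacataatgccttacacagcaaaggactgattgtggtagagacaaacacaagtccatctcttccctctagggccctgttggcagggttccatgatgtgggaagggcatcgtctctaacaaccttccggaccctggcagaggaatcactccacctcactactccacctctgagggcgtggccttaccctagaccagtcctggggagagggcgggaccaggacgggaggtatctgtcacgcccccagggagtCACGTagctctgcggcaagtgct
Egln3 (chr12:54203825-54204124, minus strand): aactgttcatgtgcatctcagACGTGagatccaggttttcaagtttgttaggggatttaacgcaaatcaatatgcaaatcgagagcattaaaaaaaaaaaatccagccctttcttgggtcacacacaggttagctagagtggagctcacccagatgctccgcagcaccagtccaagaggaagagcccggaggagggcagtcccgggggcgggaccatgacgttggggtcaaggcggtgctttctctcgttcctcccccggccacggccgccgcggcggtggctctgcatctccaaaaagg
The core was in 51.7% of the windows of the list, 25.6% of those of all genes compared and 23.1% of those of all higher genes. The list was assembled partly from genes known for the response to low oxygen, so its share with the core tests nothing. Of 27 genes of the list with a match 11 were higher, and of 11 without a match 1 was, while the median log2 ratios of the 2 sets were 0.59 and 0.44. A core of 5 letters also occurs by chance and in the sites of other factors, so a match names no factor, and the other RefSeq window of Aldoc had none.

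Other metabolic and stress lists held at most 3 genes past the size each. Over all genes compared, 3.65% were higher and 3.91% lower. In the serine, glycine and one-carbon list 3 of 21 were lower, namely Tdh (184, 53.4, 394 and 0.306 FPKM), the threonine dehydrogenase on which mouse embryonic stem cells depend, Cth (48.5, 22.5, 51.5 and 1.65 FPKM) and Cbs (16.6, 6.77, 15.4 and 0.558 FPKM). The latter 2 convert homocysteine to cysteine. Of 21 heat shock genes 3 were lower, led by Cryab (10.4, 2.51, 14.05 and 11.1 FPKM) and Hspb1 (426, 138, 505 and 4.05 FPKM). No gene passed the size in either direction among 67 respiratory chain genes (median -0.25), 30 proteasome genes (median -0.395), 33 replication genes (median -0.18) or 15 metallothionein, iron and zinc genes (median -0.16). These medians are set against one of -0.19 for the most abundant bin of genes. Of 24 NRF2 and glutathione genes, Gstm1 (9.17, 24.1, 21.96 and 12.97 FPKM) was higher and Gpx2 (6.36, 0.966, 4.77 and 0.532 FPKM) and Ephx1 (15.99, 4.02, 12.9 and 1.09 FPKM) lower. In the ATF4 list Stc2 (5.53, 14.97, 16.6 and 6.99 FPKM) was higher, and in the lysosome list its regulator Tfeb (7.31, 2.73, 20.005 and 2.86 FPKM) was lower. Idh2 was higher in the TCA list (35.7, 81.1, 63.1 and 74.6 FPKM) and the amino acid transporter Slc1a4 in its own (4.67, 10.7, 8.63 and 9.17 FPKM).

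Of the growth regulators, Myc was lower while most cell-cycle genes were level. Of 31 cell-cycle drivers, 3 were lower and 1 was higher (median -0.18). Myc (chromosome 15, 61985341 to 61990361) had 28.4, 5.78, 29.8 and 4.74 FPKM and a log2 ratio of -2.12, Mycn had 60.4, 31.9, 94.997 and 33.6 FPKM, within the size, and Mycl1 was higher with 4.13, 9.76, 8.04 and 38.95 FPKM. The 3 family members thus ranked differently in the 2 libraries. Ccne1, the G1/S cyclin E, had 102, 32.4, 185 and 15.6 FPKM, and E2f8, a repressor of E2F targets, had 16.7, 7.204, 22.1 and 8.59 FPKM. Among 28 p53 targets and CDK inhibitors, 2 were higher and 3 lower. Cdkn1c (8.28, 24.8, 15.01 and 224 FPKM) and Cdkn1b (7.42, 17.5, 11.7 and 26.6 FPKM), inhibitors of cyclin-dependent kinases, were higher, Cdkn2b (8.25, 3.14, 8.74 and 2.34 FPKM) was lower, and Cdkn1a (58.5, 52.97, 50.3 and 65.2 FPKM) and Trp53 (207, 159.5, 304 and 54.6 FPKM) were within the size. Of 23 apoptosis genes, Bmf (3.14, 9.91, 4.45 and 6.95 FPKM) and Casp9 (2.205, 6.01, 4.44 and 6.602 FPKM) were higher. Of 15 insulin-like growth factor genes, Igfbp5, Igfbp4 (2.497, 12.1, 11.9 and 34.3 FPKM) and Igfbp2 (312, 632, 391 and 204 FPKM) were higher, and Igfbp7 (38.3, 0.292, 35.1 and 0.0385 FPKM) and Igfbp6 (2.54, 0.109, 3.91 and 0.06498 FPKM) lower. Of the binding proteins, the lower pair belonged to the genes near 0 in DR-ESC, and Igfbp2 was abundant in every library.

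Among epigenetic regulators Dnmt3l stood out. It was the one gene of 34 DNA methylation and Polycomb genes past the size, with 277, 54.6, 219.7 and 0.841 FPKM and a log2 ratio of -2.32. Dnmt3l has no enzyme activity and assists Dnmt3a and Dnmt3b, which had log2 ratios of 0.49 and 0.23. Of 28 histone methylases and demethylases, Kdm4b (4.83, 13.6, 8.15 and 18.9 FPKM) was higher. Of 29 imprinted genes, expressed from 1 parental copy, 5 were higher and 1 was lower (median 0.27). That count leaves out 3 further imprinted genes that were lower, Meg3, Rian and Dio3. Nnat had 9.36, 28.1, 18.4 and 566 FPKM, Mest had 33.1, 80.7, 36.2 and 227 FPKM and Peg12 had 0.675, 4.19, 1.45 and 50.99 FPKM, all highest in NPC(GFP-). H19 (23.5, 13.4, 42.7 and 9.79 FPKM) and Igf2 (14.1, 11.8, 19.2 and 12.004 FPKM) were within the size, and Xist (1.28, 0.3396, 1.302 and 0.106 FPKM) was low in all libraries. Meg3, in a row that also carries 2 microRNA symbols, had 20.1, 0.166, 13.3 and 0.0364 FPKM and a log2 ratio of -4.18.

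**Figure D5:**
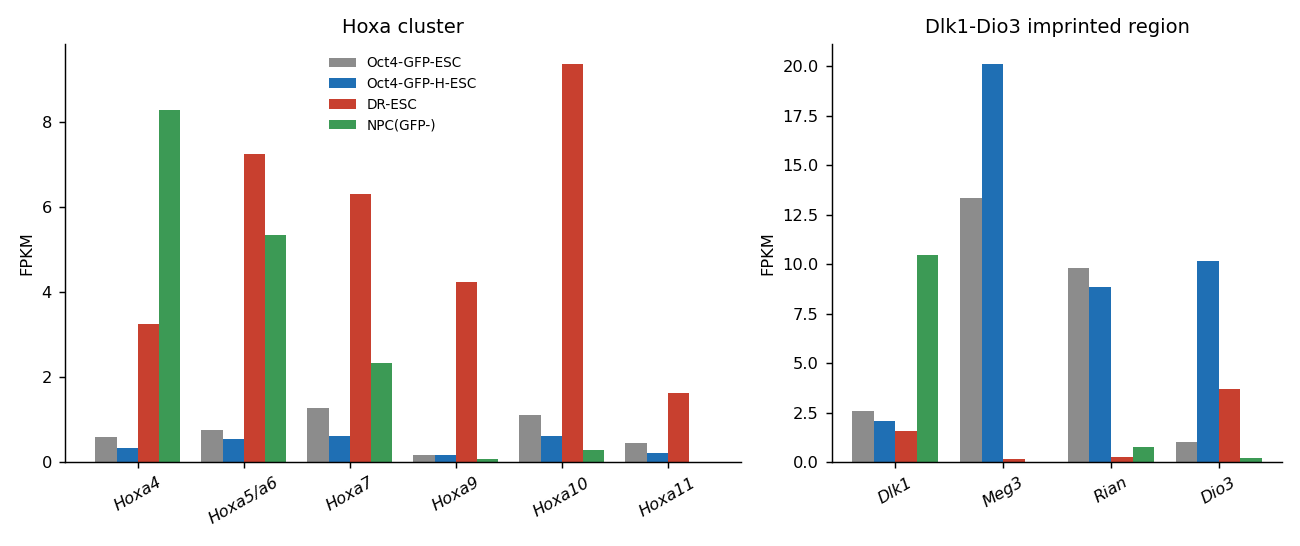
Level in FPKM (bars, from 0, with a scale of its own in each panel) of genes of the Hoxa cluster and of the imprinted Dlk1-Dio3 region, in order along the chromosome and not to distance, with 1 bar for each of the 4 libraries. DR-ESC is above Oct4-GFP-H-ESC in all 6 Hoxa rows drawn, and Hoxa10 reaches 9.38 FPKM there, while Meg3 is at 0.166 FPKM in DR-ESC, against 20.1 in Oct4-GFP-H-ESC. The 6 Hoxa rows passed the FPKM minimum only through DR-ESC.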

How the data were processed

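Poly(A) RNA of 4 cell populations was measured in 1 library each, and the 10 ChIP and input samples of the series were not analysed here. The deposited table holds log2 values of FPKM + 1 per gene; that form was recognised because 99.7% of its non-zero values return FPKM of at most 6 significant digits. Per the submitters' processing notes, the build was mm10 and the tools were Bowtie 0.12.8, TopHat2 2.0.9, CASAVA 1.8, DESeq2 and HTSeq, with no role or order named. The program that gave the FPKM is not given in the sources used here, nor is strand. Depth is unknown.

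The 19 rows with date-like symbols were dropped. Of 13180 genes, 12795 (97.1%) matched RefSeq GRCm38.p6, the source of coordinates and of 300-base promoter windows. Merged symbols of overlapping genes (238 rows, 228 compared) were kept as rows. Small RNA rows were left out of the named genes, although Snora7a and Snord15a had the largest log2 ratios of either sign. The log2(FPKM + 1) scale understates differences of low genes.

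Members and the 53 gene lists were chosen with earlier results of these data known. Named genes were the 14 highest and 14 lowest with at least 5 FPKM in either library (predicted, uncharacterised, pseudogene and small RNA symbols left out), up to 5 leading members of each list past 2-fold with at least 2 FPKM, and 34 fixed names. A few of these genes are counted in their lists and not reported singly here. Dio3, Dnmt3a, Dnmt3b, Ebp, Fasn, Fbln5, Fn1, Foxd3, Gata4, Gata6, Hes1, Hey1, Hmgcs1, Hoxa11, Hoxc6, Hoxc8, Hsd17b7, Junb, Mmp2, Nes, Nrarp, Olig2, Pdgfra, Pmvk, Pou3f1, Sox17, Sparc, Tcf15, Tubb3, Wnt5a and Wnt6 were named in the text after their values were seen. The alternatives tried were a 4-fold size, a minimum of 5 FPKM or none, a pseudocount of 0.1 or 5, no feeder lists, and scaling by equal sums, by upper quartiles, by the median ratio, or by a running median over 401 genes. Python 3.11.15, numpy 2.4.6, pandas 2.3.3 and matplotlib 3.10.9 were used, and the code was tested on simulated data.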

Additional observations from a re-analysis of the deposited data

How the results depend on the processing

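Counts over all genes turned on the pseudocount and the size rule. With a pseudocount of 0.1, 844 genes were higher and 734 lower, with one of 5 the counts were 142 and 175, and at the 4-fold size 54 and 91. Where a gene needed 5 FPKM in either library, 312 were higher and 314 lower. Equal sums of FPKM moved the median of all genes to 0.11. Every other alternative run (upper quartile scaling, a median ratio of 0, no FPKM minimum, the abundance trend removed, no feeder lists) kept both counts within 1.5 times. Of 171 named genes past the size, 62 fell under it in at least 1 alternative, 10 of them in one other than the pseudocount of 5, and no named gene changed sign while called. Medians of 10 of 53 lists changed sign; over genes with at least 5 FPKM, Hox and ParaHox went from 0.68 to -0.23 and Wnt antagonists from -0.051 to 1.64. No paired analysis was possible because each group has 1 library and the labels give no replicate numbers. The depth of the libraries is unknown, so the precision of low values cannot be given, and no replicate could be left out.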

Other observations

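The gene groups below were assembled after the values had been seen, so their counts describe these 2 libraries and test nothing. Of 24 genes that bind, make, break down or respond to retinoic acid, 23 could be compared; 10 were higher in DR-ESC, 0 lower, and the median log2 ratio was 0.67. Crabp1, which like Crabp2 carries retinoic acid in the cytoplasm, had 21.7, 83.8, 56.6 and 840.4 FPKM. Cyp26a1, the enzyme that degrades retinoic acid, had 0.7203, 4.76, 3.17 and 13.7 FPKM. Meis2, a homeobox cofactor of Hox proteins, had 0.854, 5.86, 1.01 and 45.5 FPKM. The receptors differed less, with log2 ratios of 0.602 for Rara, 0.73 for Rarb and -0.85 for Rarg. Crabp2, Stra8 and Hoxb1, which the list shares with groups described earlier, are among the 10. Of the 10, Cyp26a1, Stra6, Meis2 and Hoxb1 passed the minimum only through DR-ESC, which fixed their direction.

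At the imprinted Dlk1-Dio3 region of chromosome 12, 3 of 4 genes were lower in DR-ESC. Rian, in a row merged with a small RNA symbol, had 8.86, 0.252, 9.81 and 0.7799 FPKM and a log2 ratio of -2.98. Dio3, which inactivates thyroid hormone, had 10.1, 3.71, 1.04 and 0.1902 FPKM, and was highest in Oct4-GFP-H-ESC. Dlk1, at the other end, had 2.097, 1.58, 2.56 and 10.5 FPKM. Of 6 neighbouring genes outside the region none passed the size (median -0.13). Among gene families taken by the start of their symbols, 5 of 11 Sox genes were higher and 0 lower (median 0.82), 6 of 9 Anxa genes were lower (median -1.45), and 13 of 23 Col genes were lower and 3 higher. The medians of whole chromosomes ran from -0.060 on chromosome 8 to 0.078 on chromosome 6.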
